A study of Mus musculus with 28 samples.

Results

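The leukemia inhibitory factor (LIF) to STAT3 pathway genes examined here are Lifr, Il6st, Jak1, Jak2, Stat3, Socs3 and Pim1. They were taken by name from the 24980 uniquely named genes of the Bru-seq tables, and 7 of 7 were found. LIF binds its receptor LIFR, which pairs with the shared signal transducer gp130, encoded by Il6st. The JAK kinases bound to these receptors phosphorylate STAT3, which enters the nucleus and activates genes that hold mouse embryonic stem cells (mESCs) in self-renewal. Among its direct targets are Socs3, whose product binds gp130 and the JAK kinases and shuts the signal down, and Pim1, which encodes a serine/threonine kinase of cell survival.

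The study asked how Elongin A (EloA), a factor that stimulates elongation by RNA polymerase II, affects nascent transcription in mESCs. Transcription was followed by Bru-seq: a pulse of 5-bromouridine (BrU) marks the RNA being made, which is then immunopurified and sequenced. WT cells and cells labelled EloA null, both described as mouse CCE28 embryonic stem cells, were compared in steady state, with BrU at 2 mM for 10 min, and after 60 min in 1 µM flavopiridol (FP), a P-TEFb inhibitor, followed by washout and 5 or 10 min of recovery in BrU. Each group had 2 libraries, 12 in all. Cells of both genotypes were grown with serum, LIF and the inhibitors PD0325901 (1 µM) and CHIR99021 (3 µM) on mouse embryonic fibroblast feeders, then depleted of feeders and plated without them for labelling. External LIF was therefore present during the growth of every group. The study's methods do not say whether the medium used for labelling held it. The study describes the 2 Bru-seq replicates as independent experiments, while the labels do not say which steps were repeated. The p-values measure the spread between libraries only. The EloA null line was a gift from another laboratory, and neither the deleted stretch of its allele nor the number of clones is given in the sources used here. The protocol labels also name CJ7 cells in one place, and the first steady-state library titled EloA null carries a genotype label of wild type. Groups followed the titles.

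Library sizes, worked out from the steps between low RPKM values, ran from 9857528 to 28547356 reads and were lowest at 5 min. Of 10134 intron-containing genes, 91.6% gave integer reads (tolerance 0.05) for a length of all introns plus 1 exon base at each end of each, so the lengths behind the RPKM are those of introns, although the study's methods describe counting over whole genes. Whether exon reads were counted as well was not settled here. RPKM, reads per kilobase scaled to library size, is a level per length. If exon reads entered the counts, genes with little intron, such as Socs3 and Pim1, would be listed too high beside the others. The targeted gene, Eloa, was higher in the libraries labelled EloA null: 1.18 and 1.16 RPKM in WT against 1.96 and 1.89 in steady state, with the same order at 5 and 10 min. Reads outside a deleted stretch do not check a null label, so the wording "labelled EloA null" is kept. The study itself compared EloA protein between the lines by immunoblot. It also reported EloA CUT&RUN-seq signal near the IgG background in null cells at a ribosomal RNA gene. Those data were not analysed here. The 10 embryonic stem cell markers summed to between 176 and 212 RPKM per steady-state library and all had a WT mean above 0.5 RPKM. The 15 feeder fibroblast markers summed to between 2.02 and 2.80 RPKM, with none above 0.5 RPKM in the WT mean.

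The members differ widely in gene length, which sets how many reads each gives and how much of the gene polymerase can cover in a short recovery. The receptor genes are Lifr (GRCm38 chr15:7090610-7197489, plus strand, 106.9 kb) and Il6st (chr13:112464070-112506860, plus strand, 42.8 kb). The values of Lifr came out as whole reads for a shorter transcript of 67.9 kb with 19 introns. The kinase genes are Jak1 (chr4:101151974-101265282, minus strand, 113.3 kb, of which the first intron takes 71.2 kb) and Jak2 (chr19:29251803-29313095, plus strand, 61.3 kb). Stat3 (chr11:100886806-100939594, minus strand) spans 52.8 kb. The feedback gene Socs3 (chr11:117966079-117970336, minus strand) spans 4.3 kb and has a single intron of 556 bases in its matched transcript. Pim1 (chr17:29490785-29496111, plus strand) spans 5.3 kb and has 2662 bases of intron. Jak1 overlaps Raver2, Stat3 overlaps the gene model Gm46295 and Pim1 overlaps Gm26885. The study separated reads by strand after alignment, but its methods do not say whether the counting used strand, so reads in these overlaps may be shared.

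Promoter sequence is shown for Socs3, the classical STAT3 feedback target, and for Il6st, the receptor gene whose genotypes were apart in all 3 conditions. Sequences are from RefSeq (GRCm38.p6). The STAT recognition motif TTCNNNGAA, which reads the same on both strands, was searched in the 250 bases before each annotated start. It was found in 1 of the 9 windows of the 7 members, that of Socs3, and in 7.02% of all 32851 windows. It begins 154 bases before the annotated start used for this window. That start and the match lie inside the gene span of Socs3 given above, which reaches further upstream. Capitals mark the match below within the 29 bases around it (chr11:117969502-117969530, minus strand):
Socs3: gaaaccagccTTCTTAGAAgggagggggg
The window of Il6st (chr13:112463820-112464069, plus strand) held no match and has no capitals:
Il6st: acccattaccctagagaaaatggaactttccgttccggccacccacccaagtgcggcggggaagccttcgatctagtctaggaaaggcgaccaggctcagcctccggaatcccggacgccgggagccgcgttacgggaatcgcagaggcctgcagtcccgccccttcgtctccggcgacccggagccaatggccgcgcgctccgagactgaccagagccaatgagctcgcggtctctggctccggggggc
A match is a description of the letters and not of binding, and no match says only that these letters are missing from this window.

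In WT cells in steady state, the receptor genes and Pim1 had the highest levels, and the kinases the lowest. Il6st stood at 3.84 ± 0.0388 RPKM (SD, n = 2), Lifr at 3.81 ± 0.244 and Pim1 at 3.75 ± 0.415, and these neighbours did not differ beyond their spread. Stat3 (2.46 ± 0.00422) and Socs3 (2.22 ± 0.490) came next and overlapped each other, and every Pim1 library lay above both Stat3 libraries. Jak1 (1.23 ± 0.0641) and Jak2 (0.563 ± 0.00910) followed, each apart from its neighbours. By rank, Il6st was in the top 9.7% and 9.2% of all genes in the WT libraries and Jak2 in the top 42.0% and 41.5%.

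**Figure D1:**
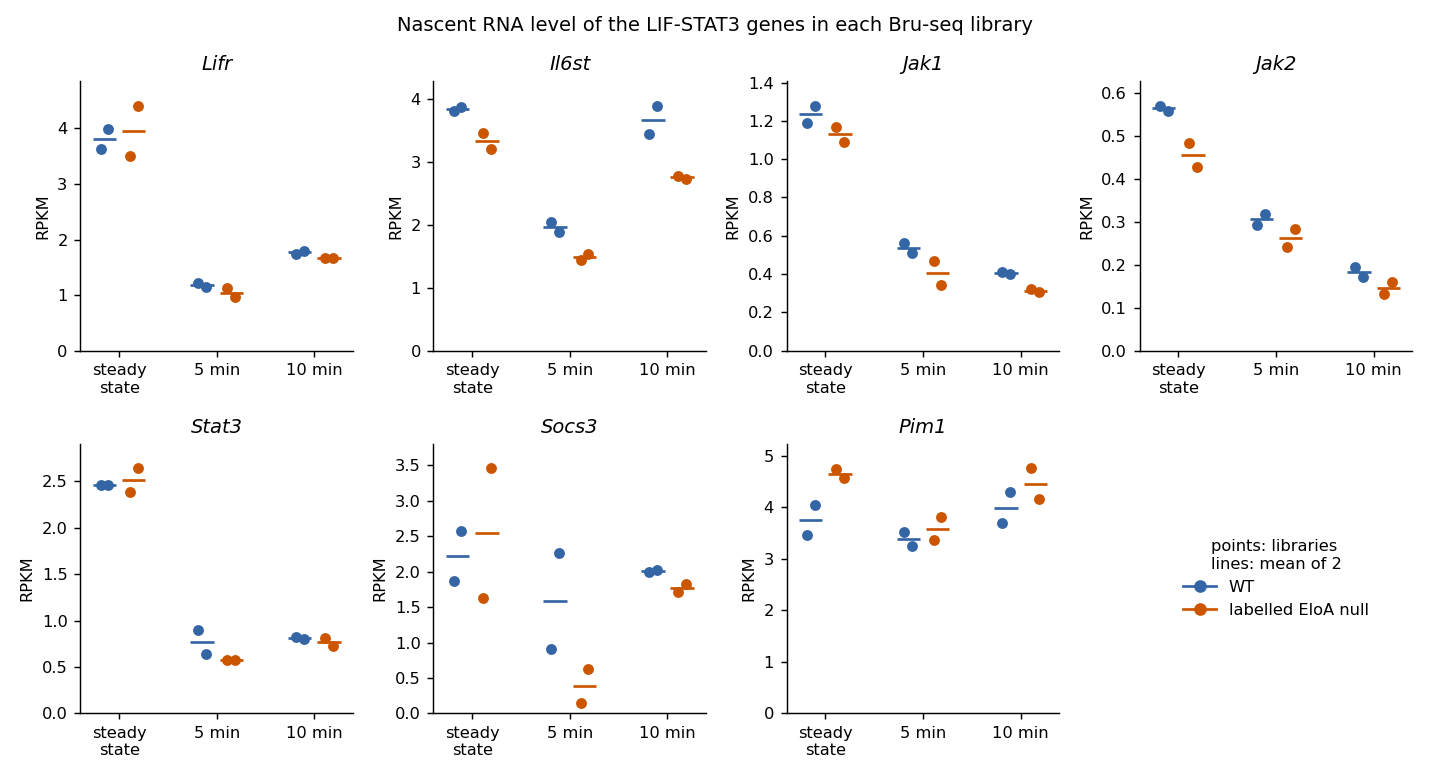
Nascent RNA level (RPKM) of the 7 genes in each of 12 Bru-seq libraries, with WT in blue and libraries labelled EloA null in orange. Points are libraries and lines are means of 2. Il6st, Jak1 and Jak2 were lower in both orange libraries than in both blue ones in each of the 3 conditions, and Pim1 was higher in steady state only. Tables of the 3 conditions were scaled separately.

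The comparison of genotypes in steady state asks whether transcription of these genes differs without EloA. In these libraries gp130 and both kinase genes were lower in the libraries labelled EloA null with no overlap between genotypes, Pim1 was higher with no overlap, and Lifr, Stat3 and Socs3 overlapped. No member reached 1.5-fold, and none passed the adjusted p-value. Of all 11345 genes tested (mean RPKM above 0.5 in either genotype), 21.4% were lower and 32% higher than WT with no overlap, so 3 of 7 and 1 of 7 are set against those shares.

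Il6st measured 3.81 and 3.87 RPKM in WT and 3.46 and 3.20 in the other genotype, on 2993 to 4036 reads a library. Both of the latter lay below both WT libraries, and the mean ratio was 0.867. The log2 difference was -0.20 (SE 0.09, limma, Benjamini-Hochberg adjusted p = 0.318). The kinase genes were lower as well. Jak1 had 1.19 and 1.28 RPKM in WT against 1.17 and 1.09, a log2 difference of -0.12 (SE 0.09, limma adjusted p = 0.525), and its nearest libraries were only just apart. Jak2, which had the lowest level, had 0.570 and 0.557 RPKM in WT against 0.484 and 0.426. Its log2 difference was -0.26 (SE 0.15, limma adjusted p = 0.416), and it passed the filter on low values only through its WT mean.

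Pim1, the STAT3-induced survival kinase, was the member that was higher. It measured 3.46 and 4.05 RPKM in WT and 4.74 and 4.57 in the libraries labelled EloA null, with 221 to 341 reads. The ratio was 1.24 and the log2 difference 0.31 (SE 0.11, limma, adjusted p = 0.257). Its gap narrowed to 0.13 when libraries were centred by gene length, and genes under 10 kb as a class had a median log2 difference of 0.17, with 41.7% of them higher without overlap.

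The signal receptor Lifr and the transcription factor Stat3 showed no separation. Lifr measured 3.63 and 3.98 RPKM in WT against 3.51 and 4.41, and the 2 libraries labelled EloA null bracketed both WT values. Stat3 measured 2.46 and 2.46 in WT against 2.38 and 2.64. Their log2 differences, 0.05 (SE 0.14) and 0.03 (SE 0.09), were within 1 standard error of 0, and both turned negative when libraries were centred on their median. Socs3, the feedback inhibitor, measured 1.87 and 2.57 RPKM in WT against 1.63 and 3.46, so that its spread within a group was larger than the gap between groups. Its values rest on 21 to 54 reads.

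The 5-min recovery gives the level of each gene shortly after release from FP arrest. A single RPKM per gene holds no position, so how far polymerase had moved cannot be read from it. Of the 7 members, 6 were lower in the libraries labelled EloA null with no overlap between genotypes, and 5 of those 6 passed the filter. Among all 8984 genes tested, 25% were lower and 15.4% higher with no overlap. The share depended on gene length: of genes between 40 and 120 kb, the range that holds Lifr, Il6st, Jak1, Jak2 and Stat3, 42.6% were lower without overlap in this table, against 40% in steady state and 42% at 10 min. With libraries centred over bins of gene length, the steady-state log2 difference of Il6st was -0.15, of Jak2 -0.19 and of Jak1 -0.01, so that nearly nothing of the Jak1 gap was left, and at 5 min that of Jak1 was -0.32 and that of Stat3 -0.28.

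Il6st measured 2.04 and 1.89 RPKM in WT and 1.44 and 1.54 in the libraries labelled EloA null. All 4 values were well apart by genotype, at a ratio of 0.757. The log2 difference was -0.38 (SE 0.14, limma, adjusted p = 0.519). In the fit of all 12 libraries, which shares 1 estimate of the spread, the difference of -0.38 had an adjusted p of 0.0486. That fit called 532 genes at 5 min, against 0 when the condition was fitted alone. Il6st was called under no other alternative. Centred by gene length the value was -0.30.

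Stat3 measured 0.899 and 0.642 RPKM in WT against 0.577 and 0.576, so that the WT libraries differed more from one another than the lower of them did from the libraries labelled EloA null. Lifr measured 1.22 and 1.15 against 1.13 and 0.962, and the gap between the nearest libraries was small. Jak1 measured 0.560 and 0.509 against 0.469 and 0.341, and passed the filter only through its WT mean. The log2 differences were -0.35 (SE 0.23) for Stat3, -0.17 (SE 0.16) for Lifr and -0.34 (SE 0.29) for Jak1, with limma adjusted p-values of 0.724, 0.791 and 0.775. Without the first WT library the value of Stat3 was -0.13, and without the second library labelled EloA null that of Jak1 was -0.15. Jak2, at 0.293 and 0.319 RPKM in WT against 0.240 and 0.284, was under the filter.

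Socs3 had the widest gap of any member, on the fewest reads. It measured 0.909 and 2.26 RPKM in WT, from 5 and 16 reads, against 0.150 and 0.623 RPKM on 1 and 6 reads in those labelled EloA null. The exact 95% Poisson intervals, which cover counting error only, ran from 0.295 to 2.12 and from 1.29 to 3.68 RPKM in WT, and from 0.00381 to 0.838 and from 0.228 to 1.35 RPKM in the others. Only the second WT library and the first library labelled EloA null had intervals that did not overlap. The log2 difference was -1.86 (SE 0.63, limma, adjusted p = 0.500), and it was -1.25 without the second WT library, -1.10 without the first library labelled EloA null and -0.87 with a pseudocount of 1. Its adjusted p was 0.00490 with a replicate block and lay between 0.100 and 0.816 under the other alternatives. Socs3 was the only member past 1.5-fold without overlap in this table, where 4.91% of all genes tested were 1.5-fold lower and 4.36% were 1.5-fold higher. It passed the filter only through its WT mean.

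Pim1 did not separate at 5 min. It measured 3.53 and 3.25 RPKM in WT against 3.36 and 3.81, with a log2 difference of 0.08 (SE 0.17), and the groups overlapped.

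At 10 min of recovery, 5 of the 7 members (Lifr, Il6st, Jak1, Jak2 and Socs3) were lower with no overlap, 3 of them among the 5 that passed the filter. Of the 10239 genes tested, 21.8% were lower and 33.5% higher with no overlap. Il6st measured 3.44 and 3.89 RPKM in WT and 2.78 and 2.73 in the libraries labelled EloA null, a clear separation at a ratio of 0.751. Its log2 difference was -0.40 (SE 0.11, limma, adjusted p = 0.175), -0.24 when centred by gene length, and between -0.48 and -0.31 without any 1 library.

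Lifr was nearly equal between genotypes, at 1.74 and 1.80 RPKM in WT against 1.66 and 1.67. The small gap had a log2 size of -0.08 (SE 0.10) and turned to 0.08 when centred by gene length. Socs3 measured 2.00 and 2.03 RPKM against 1.71 and 1.82, from 19 to 29 reads, with a log2 difference of -0.18 (SE 0.10, limma adjusted p = 0.354). This gap was far smaller than that at 5 min, and the change between the 2 times was not tested. Stat3 (0.826 and 0.806 against 0.813 and 0.729) and Pim1 (3.70 and 4.29 against 4.76 and 4.16) overlapped. Jak1, at 0.411 and 0.401 RPKM in WT against 0.322 and 0.305, and Jak2, at 0.194 and 0.171 against 0.131 and 0.159, were separated but under the filter.

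**Figure D2:**
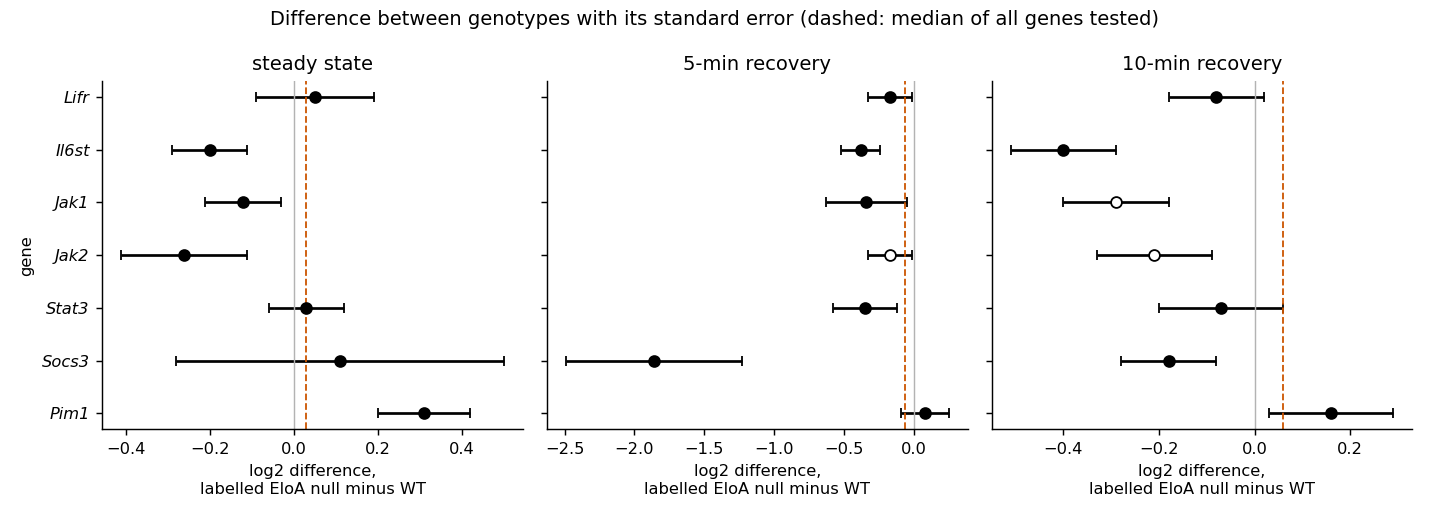
Log2 difference in RPKM between libraries labelled EloA null and WT for each gene (points) with its standard error from limma (bars), in 3 conditions with different horizontal scales; n = 2 libraries per group. Open points were under the filter on low values and come from the fit without it, and the dashed line is the median of all genes tested (0.03, -0.06 and 0.06). Il6st lies left of the dashed line by more than its standard error in all 3 panels.

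No gene of any kind passed an adjusted p of 0.05 in the 3 comparisons (0% in steady state, at 5 min and at 10 min by limma), although 2083, 846 and 2098 genes had an unadjusted p under 0.05. Among the members these were Pim1 in steady state, Il6st and Socs3 at 5 min and Il6st at 10 min. The 1.5-fold background was 6.24% higher and 1.5% lower in steady state, and 8.43% higher and 2.25% lower at 10 min, and no member was past 1.5-fold without overlap in either. With 2 libraries against 2, the smallest p of an exact two-sided permutation test is 0.333, so that test was not used.

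Whether the contrast between genotypes changed with recovery was tested directly in a fit of all 12 libraries. Of 11973 genes, 0.1% passed the adjusted p for 5 min minus steady state and 0.00835% (1 gene) for 10 min minus steady state, and no member was among them. The largest member difference was that of Socs3 at 5 min, -1.97 (SE 0.80, limma, adjusted p = 0.727). Stat3 followed at -0.37 (SE 0.19, adjusted p = 0.806). For Il6st the contrast differed from that of steady state by -0.18 (SE 0.13, adjusted p = 0.839) at 5 min and by -0.20 (SE 0.13, adjusted p = 1.000) at 10 min. The 2 tests share the steady-state libraries.

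The lists of markers for other cell types were read beside the lower level of Il6st. Feeder fibroblasts also transcribe gp130, and the summed level of their 15 markers in steady state was 2.36 and 2.80 RPKM in WT against 2.30 and 2.02. At 5 min it was 2.33 and 2.23 against 1.98 and 1.17, and at 10 min 3.80 and 2.74 against 2.91 and 2.03, where the groups overlapped. The sum was below the level of Il6st in each steady-state library, but above it in 3 of 4 libraries at 5 min and in 2 of 4 at 10 min. In steady state 0 to 2 of the 15 markers were at 0 per library, and 1 to 4 in recovery. The 8 primitive endoderm markers summed to 4.42 and 4.25 against 3.27 and 3.24 RPKM in steady state, most of it from Lama1 (3.62 and 3.52 against 2.42 and 2.51), and the order was the same at 5 min (6.24 and 5.74 against 3.99 and 3.60) and at 10 min (4.62 and 4.41 against 2.75 and 2.83). Dab2 was also lower with no overlap at all 3 times (0.236 and 0.239 against 0.122 and 0.110 in steady state). Some other markers of the list went the other way in steady state at low levels. Gata4 measured 0.191 and 0.136 against 0.248 and 0.231, and Foxa2 was at 0 in both WT libraries against 0.0219 and 0.0182. The neural and trophoblast sums were higher with no overlap in steady state. The 5 neural markers summed to 1.64 and 1.47 against 1.81 and 2.26 RPKM, and the 6 trophoblast markers to 1.44 and 1.43 against 1.61 and 1.68. In the neural list Tubb3 (0.690 and 0.550 against 0.906 and 1.08) and Sox1 were higher with no overlap. Pax6 and Nes overlapped, and Neurog2 was at 0. Most of the trophoblast sum came from Tfap2c (0.917 and 1.06 against 1.19 and 1.23). Cdx2 was also higher with no overlap, Krt8 (0.136 and 0.123 against 0.104 and 0.116) and Elf5 were lower, and Eomes and Krt18 overlapped. The trophoblast sum was lower with no overlap at 5 min (1.19 and 0.949 against 0.922 and 0.804). The other recovery sums of these lists overlapped. The part of any of these cell types in the difference of Il6st was not tested. In bulk libraries, fewer cells of a type and less RNA per cell cannot be told apart.

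Recovery was described as the RPKM of each recovery library over the mean steady-state RPKM of its genotype. The 3 tables were scaled separately, so these ratios are set beside the median ratio of genes in the same length class that passed the filter in both tables, and no test was made. Genes that fell under the filter in recovery are missing from these classes. This can raise a class median and lower the share of genes below a member. Of the short genes, Pim1 stood close to its steady-state level at both times. It had ratios of 0.940 and 0.866 in WT at 5 min, where the medians of genes under 10 kb were 0.997 and 0.923, and 0.985 and 1.14 at 10 min against medians of 1.41 and 1.28. In the other genotype its ratios were 0.722 and 0.820, then 1.02 and 0.893. Socs3 was spread widely and mostly lower at 5 min, with 0.409 and 1.02 in WT and 0.0591 and 0.245 in the libraries labelled EloA null, on the few reads given above. At 10 min it reached 0.900 and 0.915 against 0.670 and 0.716.

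Il6st followed the course of its length class. Its WT ratios were 0.530 and 0.492 at 5 min (medians of genes of 30 to 60 kb, 0.564 and 0.504) and 0.897 and 1.01 at 10 min (medians 0.984 and 0.928). In the other genotype they were 0.432 and 0.461, then 0.834 and 0.819. About as many genes of the class lay below Il6st as above it in WT, 44.6% and 47.7% at 5 min.

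Stat3, in the same length class as Il6st, stayed low. Its WT ratios were 0.365 and 0.261 at 5 min and 0.336 and 0.328 at 10 min, when the medians of its class were 0.984 and 0.928. At 10 min only 1.0% and 2.1% of the class, which left out genes under the filter, lay below it in WT. In the other genotype the shares were 1.2% and 1.5%. The gap to the class median was -1.53 ± 0.04 (log2, SD, n = 2) in WT and -1.63 ± 0.08 in the libraries labelled EloA null. Against the 100 genes nearest in span, whose own ratios were lower than those of the class, it was -1.21 and -1.33. The first intron of Stat3 takes 27.9 kb of its 52.8 kb.

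The kinase genes had lower ratios at 10 min than at 5 min. Jak2 had WT ratios of 0.521 and 0.567 at 5 min, near the class medians of 0.630 and 0.591, and 0.345 and 0.304 at 10 min, against medians of 0.658 and 0.645. Its ratio was thus lower at 10 min than at 5 min in both genotypes, and its 10-min values rest on 147 to 256 reads. Jak1 likewise went from 0.454 and 0.413 in WT at 5 min to 0.333 and 0.325 at 10 min. In its class of genes over 100 kb the medians went from 1.18 and 1.17 at 5 min to 0.690 and 0.712 at 10 min, so the gap of Jak1 to its class was -1.44 (log2) at 5 min and -1.09 at 10 min. At 5 min 3.2% and 3.3% of genes lay below it. Both kinase genes were under the filter at 10 min, and Jak2 at 5 min as well. The class, which had to pass it, is therefore not matched to them in level there.

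Lifr had higher ratios at the later time in both genotypes, going from 0.320 and 0.303 to 0.457 and 0.473 in WT and from 0.285 and 0.243 to 0.420 and 0.421 in the libraries labelled EloA null. Its distance from the class median depended on which transcript sets its length. By the gene span of 106.9 kb the gap at 5 min in WT was -1.91 (log2), and by the 67.9 kb of the transcript that gave whole reads it was -0.98. At 10 min these values were -0.59 and -0.49. In each case Lifr lay below the median of its class.

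**Figure D3:**
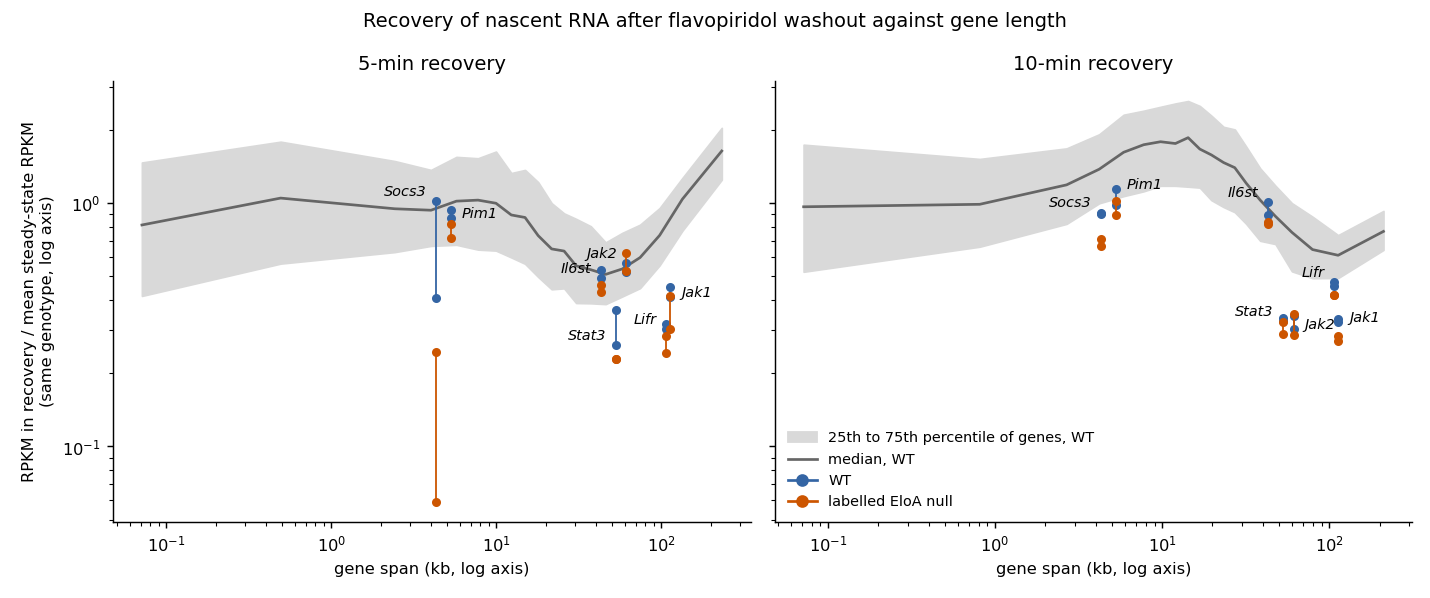
RPKM in recovery over mean steady-state RPKM of the same genotype (vertical, log axis) against gene span in kb (horizontal, log axis), after 5 min (left) and 10 min (right). Each pair of points is the 2 libraries of a genotype, the grey line is the median and the band spans the 25th to 75th percentile of genes in WT over 20 length bins. Il6st lies close to the grey line at both times, whereas Stat3 lies below the band at both times.

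The genes whose pattern over the 12 libraries was most like that of each member, by the root mean square difference of centred log2 values among 8215 or 8216 genes, were as follows. Akap10 and Pak2 were closest to Il6st (0.09 each), Tpd52 (0.10) and Sin3a (0.11) to Lifr, Lnpk (0.07) and Uxs1 (0.09) to Jak1, and Ankrd26 and Lrrc28 (0.11 each) to Jak2. Pram1 (0.10) and Rell1 (0.12) were closest to Stat3, Pfn1 (0.10) and Mtor (0.11) to Pim1. Socs3 had no close match, since Samd11 (0.47) and Bbs10 (0.52) were the nearest, and its own values spanned 3.83 on the log2 scale. No member was among the closest genes of another member.

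The other genes of the pathway, 54 in all, were grouped by role. In steady state 35 passed the filter, of which 18 were higher and 6 lower than WT with no overlap (51.4% and 17.1%). Over all genes tested these shares were 32% and 21.4%. At 5 min 4 were higher and 7 lower of 23 (17.4% and 30.4%, beside 15.4% and 25% over all genes), and at 10 min 17 were higher and 8 lower of 31 (54.8% and 25.8%, beside 33.5% and 21.8%). Of the genes that passed, 3 in steady state (Lif, Osm and Myc) and 4 at 10 min did so only through the libraries labelled EloA null, and 1 in steady state and 2 at 5 min only through WT, so the counts are a description and support no direction. None passed the adjusted p in any table. Their median log2 difference was 0.13 in steady state, -0.03 at 5 min and 0.14 at 10 min, beside 0.03, -0.06 and 0.06 over all genes tested. The part of gene length in these counts was not tested.

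The ligand genes of the family were at low levels except Cntf, which encodes ciliary neurotrophic factor. Overlaps with neighbouring genes were not looked up for these other pathway genes. Whether the reads at Cntf come from Cntf itself was not tested. Lif itself measured 0.260 and 0.324 RPKM in WT and 0.585 and 0.563 in the libraries labelled EloA null in steady state, and both of the latter lay above both WT libraries. Its ratio was 1.96 and its log2 difference 0.79 (SE 0.19, limma adjusted p = 0.165). Osm, which encodes the related cytokine oncostatin M and lies on the same chromosome, 11, measured 0.286 and 0.230 against 0.573 and 0.673 (ratio 2.41, log2 difference 1.01, SE 0.20, limma adjusted p = 0.130). The steady-state values of Osm rest on 16 and 15 reads in WT against 31 and 44. Lif and Osm passed the filter in steady state only through the libraries labelled EloA null. At 10 min, under the filter, they stood at ratios of 1.97 and 2.36 with no overlap. At 5 min, also under the filter, Lif was lower with no overlap, at 0.223 and 0.173 RPKM in WT against 0.146 and 0.138, while Osm rested on 0 and 4 reads in WT against 5 and 8. Cntf measured 7.42 and 7.19 RPKM against 8.24 and 5.27 in steady state and overlapped. At 10 min it was at 0.295 and 0.352 in WT against 0.0555 and 0.0388, under the filter and on 5 and 7 reads against 1 and 1. Il6, Il11 and Clcf1 were below 0.5 RPKM in every library. Their ratios ran from 0.701 (Clcf1 at 10 min, lower with no overlap) to 2.26 (Il6 at 10 min). The latter rests on 2 and 2 reads in WT against 4 and 7.

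Of the other receptors only Il6ra, the interleukin-6 receptor chain that pairs with gp130, passed the filter. It was higher with no overlap in all 3 tables, at 1.62 and 1.60 RPKM in WT against 1.90 and 2.15 in steady state (log2 difference 0.31, SE 0.09, limma adjusted p = 0.208). Osmr, which replaces LIFR in the oncostatin M receptor, and Il11ra1 stayed under 0.2 RPKM in each library. The kinase Jak3, known from lymphoid cytokine signalling, measured 1.05 and 1.10 RPKM against 1.41 and 1.85, at a ratio of 1.52, and Tyk2 0.723 and 0.644 against 0.728 and 0.894. These steady-state values are opposite in direction to Jak1 and Jak2, and none of the 4 differences passed the adjusted p. The nearest libraries of Tyk2 were only just apart. At 5 min, under the filter, Jak3 and Tyk2 overlapped at ratios of 0.852 and 0.927, below 1 like Jak1 (0.759) and Jak2 (0.854). At 10 min Jak3 and Tyk2 were higher with no overlap, at ratios of 1.41 and 1.17. Among the STAT factors, Stat2 measured 0.651 and 0.609 RPKM in WT against 0.711 and 0.748 in steady state, below Stat3 in every library.

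Of the 15 other inhibitors and phosphatases, 11 passed the filter in steady state, 5 of them higher and 4 lower with no overlap (45.5% and 36.4%, beside 32% and 21.4% of all genes). Pias2 had the highest level, 13.3 and 16.2 RPKM in WT against 10.9 and 12.3. Socs4 was higher with no overlap at all 3 times (2.18 and 1.87 against 2.96 and 2.54 in steady state), and its relative Socs6 was lower at all 3 (1.87 and 2.06 against 1.55 and 1.58). Pias3 and Pias4, of the family of protein inhibitors of activated STAT, each had a ratio of 1.56 at 10 min with no overlap, and limma adjusted p-values of 0.194 and 0.162. Ptprc was near 0 in every library. The adaptors Gab1 (8.02 and 8.23 against 8.05 and 9.21) and Grb2 (4.03 and 4.04 against 3.56 and 4.19) overlapped in steady state.

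**Figure D4:**
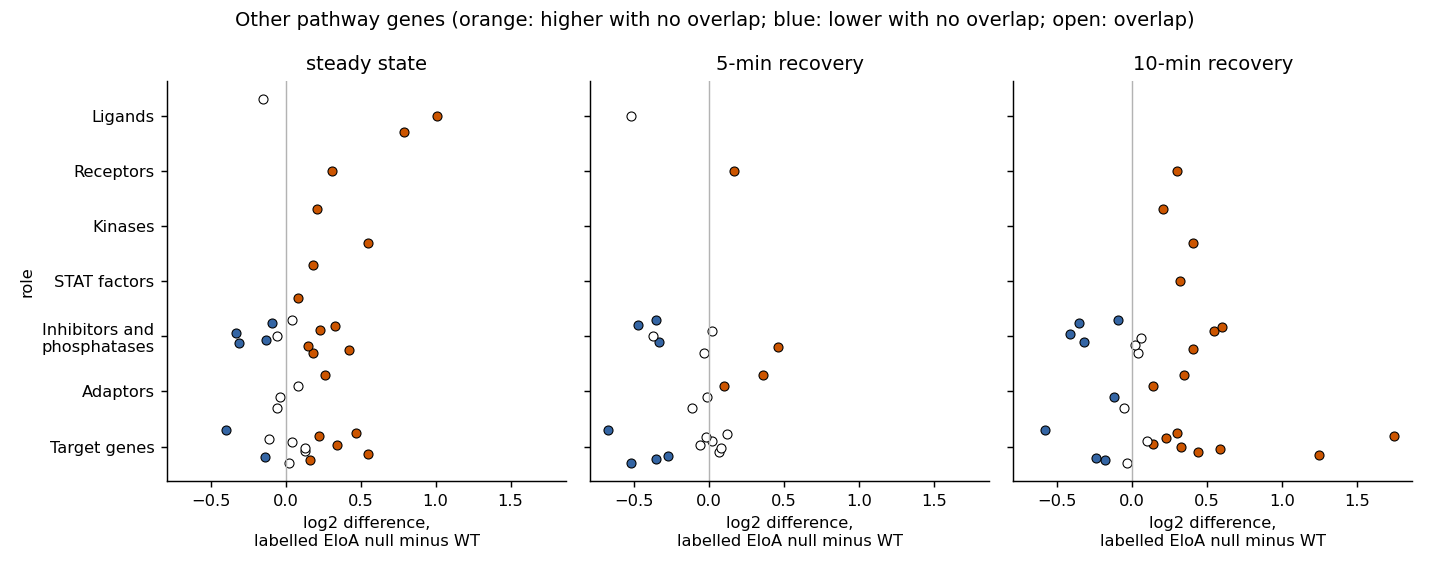
Log2 difference between libraries labelled EloA null and WT (horizontal) for the other pathway genes that passed the filter, by role (vertical), in 3 conditions. Each point is 1 gene, orange where both libraries labelled EloA null were above both WT libraries, blue where both were below and open where groups overlapped. Of 35 genes in steady state, 18 are orange and 6 blue.

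STAT3 target genes of embryonic stem cells differed among themselves. Of 12 that passed the filter in steady state, 5 were higher and 2 lower with no overlap (41.7% and 16.7%, beside 32% and 21.4% of all genes). At 5 min 0 were higher and 4 lower of 10 (40%, beside 25% of all genes), and at 10 min 8 were higher and 3 lower of 13 (61.5% and 23.1%, beside 33.5% and 21.8%). Of the 13, 2 (Myc and Ier3) passed the filter only through the libraries labelled EloA null. Among all tested genes under 10 kb, 41.7% in steady state and 48.9% at 10 min were higher with no overlap. The part of gene length in the target counts was not tested. Mcl1, a survival factor, had the highest level and measured 22.5 and 22.8 RPKM in WT against 28.4 and 24.7. Klf5, a pluripotency factor, measured 19.5 and 18.4 against 22.7 and 19.7 in steady state, and at 5 min the order was turned, at 30.4 and 29.8 against 21.3 and 26.4. Pramel7, which supports LIF-dependent self-renewal, was lower with no overlap in all 3 tables. It measured 10.4 and 7.65 RPKM against 6.94 and 6.55 in steady state and 7.74 and 7.22 against 5.03 and 4.94 at 10 min, where the log2 difference was -0.58 (SE 0.09, limma adjusted p = 0.108).

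Myc, the best known growth target of STAT3, went the other way. It measured 0.430 and 0.477 RPKM in WT against 0.542 and 0.925 in steady state, overlapped at 5 min, and measured 0.364 and 0.345 against 0.895 and 1.07 at 10 min. The last gap had a ratio of 2.77 and a log2 difference of 1.25 (SE 0.17, limma, adjusted p = 0.0968). In steady state and at 10 min Myc passed the filter only through the libraries labelled EloA null. Pim3, a paralogue of Pim1, was just past 1.5-fold at 10 min (1.56 and 2.50 against 3.43 and 2.68). Ier3, an immediate early gene, was past 1.5-fold at 10 min on 0 and 1 reads in WT against 1 and 3, too few to separate the groups, and it passed the filter only through the latter. Gbx2, Zfp36 and Cebpb were past 1.5-fold without overlap in 1 table each, under the filter and on few reads. Gbx2 had 7 and 1 reads in WT against 10 and 13 at 10 min. In steady state Zfp36 had 3 and 1 against 5 and 4, and Cebpb 5 and 4 against 5 and 10.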

How the data were processed

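Bru-seq RNA of 12 libraries was analysed, and the 16 CUT&RUN-seq and ChIP-seq samples were not analysed here. The authors aligned reads to mm10 with Bowtie2 (2.3.4.3 in the submitters' processing notes), kept unique alignments, counted genes with featureCounts (1.6.1) and deposited edgeR-normalized RPKM values, 1 table per condition. RPKM within a table shares a total, so a gain in some genes lowers others. The authors' mean columns were not used, and 0 columns of other samples were found. The sources differ on RNA input per sample, which was not resolved here.

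From the deposited RPKM, log2(RPKM + 0.1) was fitted in each table with limma 3.58.1 (R 4.3.3, intensity trend, Benjamini-Hochberg adjustment) over genes with a mean above 0.5 RPKM in either genotype. Fold changes on this scale understate changes of low genes. The script was tested on simulated data. Genes were matched to RefSeq GRCm38 by symbol (24420) or older symbol (423), 137 not at all. RPKM values were turned back into whole reads to give depth only. Replicates differed beyond sampling noise (chi-square per degree of freedom 7.54 to 16.77).

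Named genes were the members, Eloa, the 2 pathway genes of each role with the highest steady-state level, pathway genes past 1.5-fold without overlap in any table, and the 2 genes most like each member. Socs6, Lama1, Dab2, Gata4, Foxa2 and the single neural and trophoblast markers were named after their values were seen. One gene that the rule names is not reported here. The members and lists were chosen with earlier results of these data known. Alternatives were a pseudocount of 1, no filter, median centring, quantile normalization, centring over 20 bins of length or GC content, a replicate block, all 12 libraries together, and leaving out each library.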

Additional observations from a re-analysis of the deposited data

How the results depend on the processing

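At an adjusted p of 0.05, the fit of all 12 libraries called 132 genes in steady state, 532 at 5 min and 264 at 10 min, against 0 in each table alone. Replicate numbers are shared by the genotypes without a stated pairing. Deviations of same-numbered libraries correlated at 0.10, 0.12 and 0.10, and the replicate block called 128 genes at 5 min, among them Socs3 (-1.86, adjusted p = 0.00490), and changed no other member's call. At 5 min centring by GC content called 10 genes, and leaving out 1 library called 0 to 60 (47 without WT replicate 1, 60 without WT replicate 2, 39 without EloA null replicate 1). At 10 min the counts were 5 (pseudocount 1), 12 (median centring), 6 (quantile), 11 (length) and 32 (GC), and 0 to 33 without 1 library (31 and 33 without EloA null replicates 1 and 2). Differences of contrasts called 3 and 4 genes with a pseudocount of 1, and 2 to 28 and 1 to 4 without 1 library. The cause of these shifts was not tested.

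Il6st stayed negative under every alternative run (-0.26 to -0.09, -0.43 to -0.25 and -0.50 to -0.24 in the 3 tables). Members near 0 turned. In steady state Lifr was -0.01 and Stat3 -0.03 with median centring, Stat3 -0.01 with quantile normalization, and Socs3 -0.03 by length and -0.22 by GC. At 10 min Lifr was 0.08 by length and 0.00 by GC, Stat3 0.08 by length and Pim1 -0.08 by GC. Without 1 library, steady-state Lifr ran from -0.11 to 0.21, Stat3 from -0.05 to 0.10 and Socs3 from -0.41 to 0.63, and Pim1 at 5 min from -0.01 to 0.17. The 10-min minus steady-state contrast then ran from -0.29 to 0.03 for Lifr, -0.03 to 0.13 for Jak2 and -0.82 to 0.23 for Socs3. At 5 min Socs3 ran from -2.62 to -1.10. With steady-state genes as the length class, added after seeing the data, the 5-min gaps of Il6st were 0.19 (WT) and 0.16, and of Pim1 0.22 and 0.28. Jak2 was 0.01 in WT beside the 100 genes nearest in span. Few reads limit Socs3.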
